A study of Mus musculus with 8 samples.

Results

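Complex I, the NADH:ubiquinone oxidoreductase of the mitochondrial respiratory chain, was followed here through every protein-coding mouse gene whose symbol starts with Nduf. The annotation gave 48 such genes among the 22430 genes of the count table: 7 core subunits, 30 accessory subunits, 8 assembly factors (Ndufaf1 to Ndufaf8) and 3 genes that carry the symbol without being subunits of the complex (Ndufa4, Ndufa4l2 and Ndufb11b). The members lie on 18 chromosomes, and 2 of them are X-linked (Ndufa1 and Ndufb11). Polyadenylated RNA was sequenced from the brains of 8 male C57Bl/6JRj mice bought from 1 breeder. The ages were 6 months (6m, young adult) and 24 months (24m, aged), 4 animals each, with 1 library per animal and no treatment or transgene. The labels give the tissue as whole brain and, in the protocol, as a brain hemisphere. The comparison asked whether mRNAs of complex I differed between the ages.

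Complex I takes electrons from NADH through a flavin and a chain of iron-sulphur clusters to ubiquinone, and uses the energy to pump protons across the inner mitochondrial membrane. Its core subunits carry the cofactors and the proton channels, and those of the membrane arm are encoded by mitochondrial DNA, while all Nduf genes are nuclear. Accessory subunits surround the core and stabilise it, and assembly factors help to build the complex without staying in it. In neurons the complex feeds the respiratory chain that supplies most of the ATP for ion pumping and synaptic transmission.

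Library totals were 63460940 to 103462414 counts, and the 24m replicate 1 library was the deepest. Expression is given as counts per 1e+06 (CPM) of the library size after TMM scaling, differences as log2 fold changes of 24m against 6m with their standard error (SE), and adjusted p-values come from the edgeR quasi-likelihood test on 16730 genes with Benjamini-Hochberg adjustment (n = 4 libraries per age). A gene was called lower where the adjusted p did not exceed 0.05 and the log2 fold change was -0.58 or lower. A library that stood apart was 24m replicate 1: the mean log2 CPM over the Nduf genes was 7.02 in it, against 6.33 to 6.55 in 24m replicates 2 to 4 and 7.46 to 7.65 in the 6m libraries. It was the highest 24m library and still below every 6m library in 44 of the 47 tested members, so results that turn on it are also given without it. Markers of neurons, astrocytes, oligodendrocytes and microglia were all present, and 0 of the 35 cell type markers used had a library without counts.

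Complex I mRNAs were lower in the aged brain almost throughout. Of the 48 members, 47 passed the filter on low counts, 42 of these (89.4%) were called lower at 24m and 0 were called higher. Over all genes tested, 18.3% were called lower and 25.3% higher. Without the fold threshold, 46 members fell at the adjusted p, against 29.9% of all genes. In 45 members every 24m library lay below every 6m library, which was the case for 26.8% of all genes, and in no member did every 24m library lie above, as it did for 28.4% of all genes. The median log2 fold change of the members was -0.93, a fall to 0.525 of the young level, and that of all genes tested was -0.003. Ndufs1 alone among the tested members did not fall. Ndufb11b, a copy of Ndufb11, had 0 counts in each library. This allows up to 3 counts in the shallowest library, or 0.0473 per 1e+06 of its total before TMM scaling.

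The members together took 1.28, 1.16, 1.15 and 1.22% of all counts in the young libraries. In the aged libraries they took 0.924, 0.708, 0.689 and 0.619%. All 24m libraries were below all 6m libraries, with 24m replicate 1 the nearest to them. The means were 1.20 ± 0.0615% and 0.735 ± 0.132% (SD), and 0.672% in 24m without replicate 1. These shares rest on no scaling factor, and their 95% Wilson intervals reach at most 0.0026 percentage points to either side, for counting error only. Single members had 106 to 64797 counts per library among those tested. In bulk tissue fewer cells of a type and less RNA per cell cannot be told apart.

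Members are short genes, and length moved with the result. The median canonical transcript of the tested members was 1154 bases and their median coding length 504 bases, against 3311 and 1365 bases for the protein-coding genes tested. Over those genes the log2 fold change rose with transcript length (Spearman rho 0.569, n = 16573, across genes of the same libraries). Among the 10834 genes with transcripts of 538 to 4322 bases, the span of most members, the median log2 fold change was -0.22, 24.1% were called lower and 13.1% higher. These genes were chosen by the span alone and not matched to the members' lengths within it. They are therefore no background for genes as short as most members. In an alternative added after the data had been seen, a smooth trend over canonical transcript length was removed in each library. It left 18 members called lower, 36 that fell at the adjusted p, and a median of -0.39 against -0.05 for all genes. Of all genes, 16.5% were called lower and 16.9% higher in that fit. With the trend taken over the union of all annotated exons instead, 34 were called lower and the median was -0.85. For all genes the median was then -0.09, with 20.5% called lower. With that trend and one over GC content removed together, 36 were called lower and the median was -0.83. For all genes the median was -0.09 here, with 20.5% called lower. Removing the trend over all annotated exons did not remove that over canonical transcript length. Over the protein-coding genes tested the rho with canonical transcript length was still 0.281. No member was called higher in any of these alternatives.

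Scaling also mattered. With library totals in place of TMM factors, 31 members were called lower, the median of all genes moved to 0.21, and 10.4% of all genes were called lower and 32.6% higher. Relative to that shift the members' median was -0.93, as it was with TMM. With quantile-normalized counts in DESeq2, close to the procedure of the study, 37 members were called lower beside 23.3% of all genes lower and 21.4% higher.

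**Figure D1:**
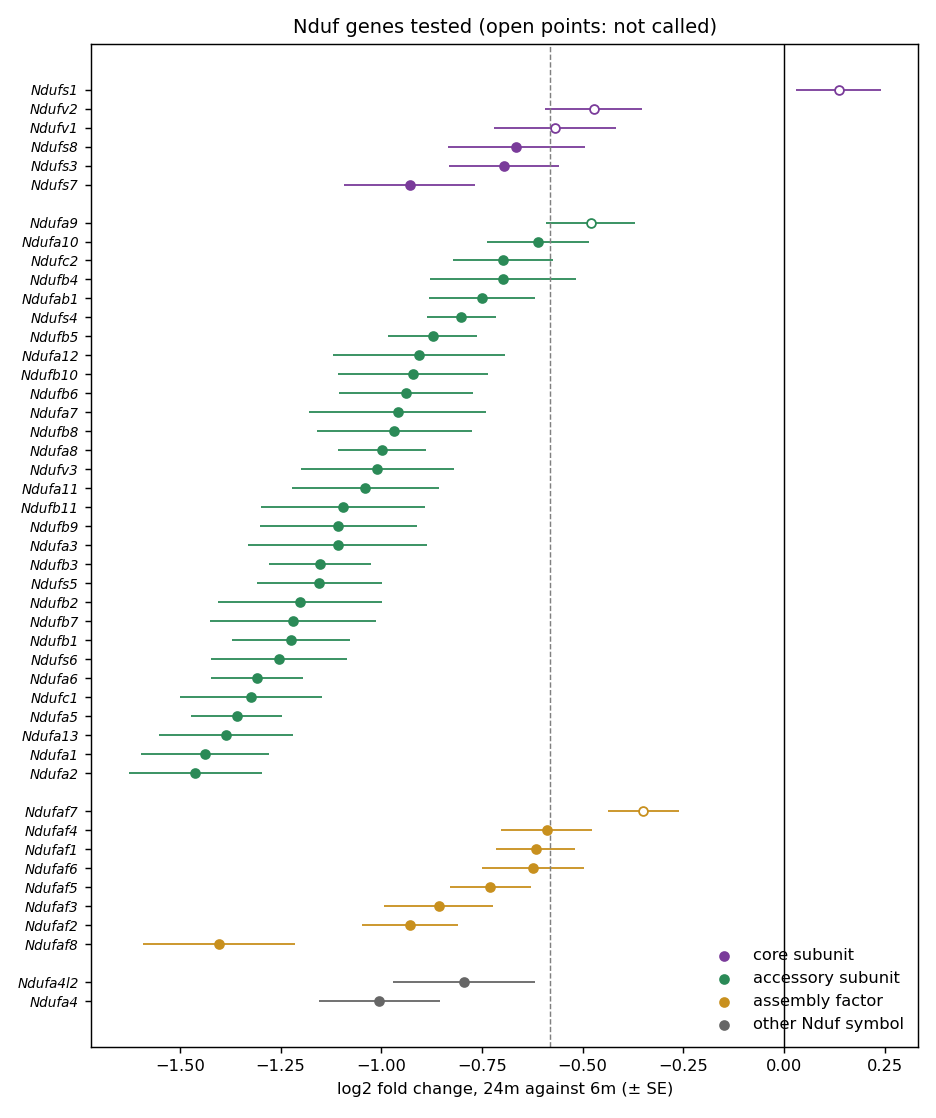
Log2 fold change of 24m against 6m for 46 of the 47 Nduf genes tested, by class, with the SE as a horizontal line. Filled points were called lower, open points were not, and the dashed line marks -0.58. All points but that of Ndufs1, at 0.14, lie left of 0.

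Core subunits were first taken one by one. Ndufv1 (ENSMUSG00000037916, chr19:4057384-4062814, minus strand) binds the flavin and NADH, and had 688, 621, 607 and 690.3 CPM in the 6m libraries and 589.8, 408, 411 and 348 CPM in the 24m libraries. Its log2 fold change was -0.57 ± 0.15 (SE; adjusted p = 0.00859), just short of the fold threshold. Replicate 1 at 24m lay close below the lowest 6m library and the other 24m libraries well below, and without that library the fitted value was -0.73 (adjusted p = 1.83e-05), which is past the fold threshold. It was also past it with the replicate number as a block, at -0.595 (adjusted p = 0.00803). Ndufv2 (ENSMUSG00000024099, chr17:66385633-66408634, minus strand), which holds an iron-sulphur cluster beside the flavin, also had 24m replicate 1 nearest to the young libraries. It had 358, 339, 327 and 364 CPM at 6m and 311, 252, 225 and 211 CPM at 24m (log2 fold change -0.47 ± 0.12 SE, adjusted p = 0.00706). With all libraries both fell without passing the fold threshold, but Ndufv2 too passed it without 24m replicate 1, at -0.585 (adjusted p = 4.83e-05).

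Ndufs1 (ENSMUSG00000025968, chr1:63182058-63216236, minus strand), the largest subunit of the NADH-oxidising end, carries several clusters of the electron path. The 6m libraries held 119.6, 125, 118 and 110.4 CPM and the 24m libraries 110.3, 127, 128 and 155 CPM. The ages overlapped: 24m replicate 1 was as low as the lowest 6m library, and 24m replicates 2 to 4 were above all of them. The log2 fold change was 0.14 ± 0.11 (SE; adjusted p = 0.282), and it was -0.10 for 24m replicate 1 alone and 0.21 for replicates 2 to 4. Its mRNA is among the longer ones of the group, and its coding length of 2181 bases is the longest. The 4506 tested genes with transcripts of like length, 2890 to 4516 bases, had a median log2 fold change of 0.17, with 27.5% called higher and 9.34% lower. Its value depended on the processing in both directions. It was 0.36 (adjusted p = 0.0377) with library totals alone, 0.22 (adjusted p = 0.0432) without 24m replicate 1 and 0.04 (adjusted p = 0.705) without 24m replicate 4, so that it passed the adjusted p as a rise in the first 2 of these without reaching the fold threshold. With corrections for sequence properties the sign turned: it was -0.11 (adjusted p = 0.315) after removing the trend over canonical transcript length, and -0.40 (adjusted p = 0.00124) after removing the one over all annotated exons.

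Per kilobase of canonical transcript, Ndufs1 was the least abundant nuclear core mRNA at both ages, at 32.8 CPM per kb at 6m and 36.0 at 24m. Most abundant of the nuclear core were Ndufs7 at 6m with 453.9 and Ndufv1 at 24m with 263. As a share of the median level per kb of the other nuclear core subunits, Ndufs1 went from 7.67 to 10% at 6m to 9.83 to 23.4% at 24m. No scaling factor changes this ratio. Replicate 1 at 24m lay within the young range and the other 24m libraries above it.

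Further core subunits belong to the part of the peripheral arm that hands electrons to ubiquinone (the Q module). Ndufs7 (ENSMUSG00000020153, chr10:80084941-80095049, plus strand) carries the last cluster before ubiquinone. It had 408, 334, 354 and 414 CPM at 6m and 269, 189, 181 and 155 CPM at 24m, with no overlap. Its log2 fold change was the lowest of the nuclear core, -0.93 ± 0.16 (SE; adjusted p = 0.000962).

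Ndufs3 (ENSMUSG00000005510, chr2:90724969-90735284, minus strand), a scaffold of the same module, had 325, 289, 285 and 300.5 CPM at 6m and 241, 176, 175 and 149 CPM at 24m (log2 fold change -0.70 ± 0.14 SE, adjusted p = 0.00186). Ndufs8 (ENSMUSG00000059734, chr19:3958862-3962948, minus strand) holds a pair of clusters and had 302, 282, 272 and 310.4 CPM at 6m and 261, 169.6, 163 and 142 CPM at 24m (log2 fold change -0.66 ± 0.17 SE, adjusted p = 0.0072). In both genes all aged libraries were below all young ones, and for Ndufs8 the gap between 24m replicate 1 and the lowest 6m library was small. In all, 4 of the 7 nuclear core subunits were called lower and 6 fell at the adjusted p, with a class median of -0.66. The calls depended on the scaling: 1 of the 7 was called lower with library totals alone (median -0.46) and 1 with quantile-normalized counts (median -0.34). After removal of the trend over canonical transcript length 0 of the 7 were called, the median was -0.17, and Ndufs8 was at 0.02 (adjusted p = 0.822).

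**Figure D2:**
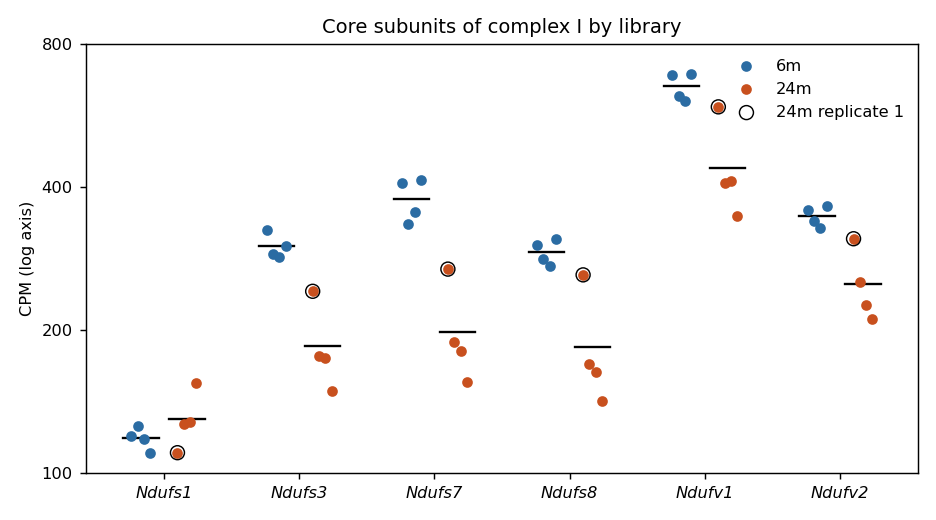
CPM of 6 nuclear core subunits in each library on a log axis, with 6m in blue, 24m in orange, group means as bars and 24m replicate 1 ringed. Ndufs1 overlaps between the ages, the others shown do not, and the ringed library is the highest 24m library in each of those others.

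Accessory subunits fell further than the nuclear core subunits. The 7 core subunits of mitochondrial DNA, given below, had a median of -1.06, about that of the accessory subunits. All 30 fell at the adjusted p, 29 were called lower, and their median log2 fold change was -1.07, a fall to 0.477 of the young level. The exception to the call was Ndufa9. Within each library the mean log2 CPM of the nuclear core lay above that of the accessory subunits. The gap was 0.33, 0.42, 0.41 and 0.34 in the 6m libraries and 0.74, 0.90, 0.88 and 0.98 in the 24m libraries. The ages did not overlap, and 24m replicate 1 sided with the aged libraries. The gap widened by 0.50 on the log2 scale, and by 0.55 without that library. Median coding lengths were 1059 bases for the core and 420 bases for the accessory subunits, and the part of length in the gap was not tested apart from the alternatives above, in which the trend over canonical transcript length left medians of -0.17 and -0.54.

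**Figure D3:**
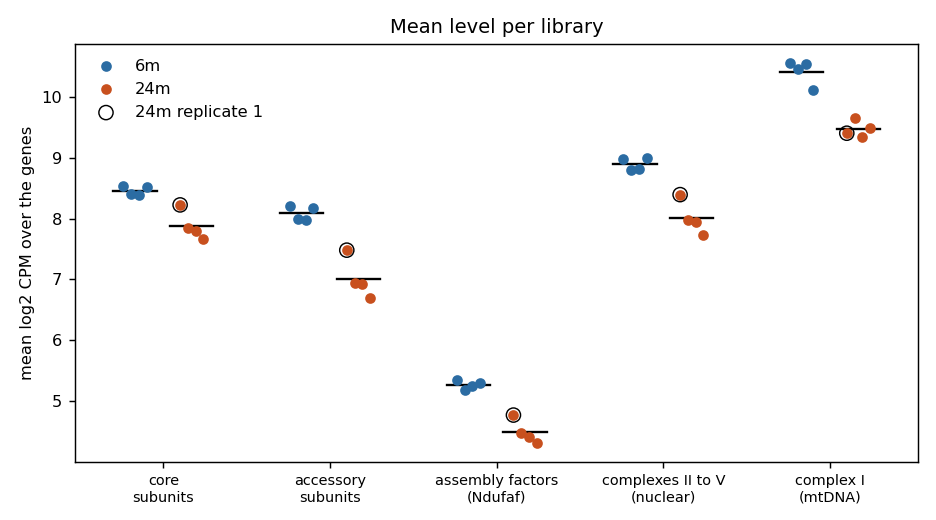
Mean log2 CPM per library over core subunits, accessory subunits, assembly factors, nuclear subunits of complexes II to V and complex I genes of mitochondrial DNA (mtDNA), with 6m in blue, 24m in orange, means as bars and 24m replicate 1 ringed. That library is the highest 24m library in the 4 nuclear groups and lies among the other 24m libraries for the mitochondrial genes.

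By position in the complex, 9 of 9 subunits of the proximal membrane arm were called lower (median -1.11), 12 of 12 of the distal membrane arm (median -1.03), 7 of 8 of the Q module (median -0.81) and 5 of 8 of the NADH-binding N module (median -0.85). The nuclear core subunits all sit in the peripheral N and Q modules, and the lower medians of the membrane arm went with that. Among accessory subunits alone the median was -1.01 in the N module, where 5 of 5 were called lower, and -1.13 in the Q module, where 3 of 4 were. These lay about the medians of the membrane arm, so that no order by position was seen among the accessory subunits.

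The lowest fold changes were those of small subunits. Ndufa2 (ENSMUSG00000014294, chr18:36875383-36877618, minus strand), a thioredoxin-fold protein of the N module, had 358, 288, 295 and 344 CPM at 6m and 158, 109.5, 108 and 90.7 CPM at 24m. Its level at 24m was 36.3% of that at 6m (log2 fold change -1.46 ± 0.16 SE, adjusted p = 0.000112). Ndufa1 (ENSMUSG00000016427, chrX:36451241-36454849, minus strand), a single-span membrane protein needed to build the complex, had 212, 182, 171 and 218 CPM at 6m and 96.6, 65.8, 69.2 and 57.7 CPM at 24m (log2 fold change -1.44 ± 0.16 SE, adjusted p = 0.000103). In both genes 24m replicate 1 lay clear of the young libraries, with a log2 difference of -1.02 from their mean.

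Ndufa13 (ENSMUSG00000036199, chr8:70346808-70355872, minus strand), which is also known as a regulator of cell death, had 638, 509, 548 and 604 CPM at 6m and 300.0, 211, 201 and 169 CPM at 24m (log2 fold change -1.39 ± 0.17 SE, adjusted p = 0.000154). Ndufa5 (ENSMUSG00000023089, chr6:24518659-24528012, minus strand), a Q module subunit, had 189.9, 159, 164 and 176 CPM at 6m and 79.0, 66.1, 67.6 and 55.9 CPM at 24m (log2 fold change -1.36 ± 0.11 SE, adjusted p = 3.20e-05). Here 24m replicate 1 lay near the other aged libraries, with a difference of -1.13 against -1.45 for the rest. Ndufc1 (ENSMUSG00000037152, chr3:51309273-51316412, minus strand), a small membrane subunit, had 165, 133, 139 and 172 CPM at 6m and 85.0, 53.6, 56.3 and 48.2 CPM at 24m (log2 fold change -1.32 ± 0.18 SE, adjusted p = 0.000243). Ndufa6 (ENSMUSG00000022450, chr15:82234340-82238523, minus strand), a LYR-motif protein that binds the acyl carrier protein, had 275, 238, 243 and 268 CPM at 6m and 124, 98.4, 104 and 86.8 CPM at 24m (log2 fold change -1.31 ± 0.11 SE, adjusted p = 3.71e-05). None of these overlapped between the ages, and each was called lower under the removal of the trend over canonical transcript length as well.

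At the other end stood accessory subunits that fell least. Ndufa9 (ENSMUSG00000000399, chr6:126798684-126826117, minus strand), which binds a nucleotide at the junction of the arms, had 319, 295, 288 and 340.5 CPM at 6m and 266, 211, 221 and 193 CPM at 24m (log2 fold change -0.48 ± 0.11 SE, adjusted p = 0.00396). It fell but did not pass the fold threshold. Ndufa10 (ENSMUSG00000026260, chr1:92361375-92401613, minus strand), a relative of nucleoside kinases, had 413, 365, 369.8 and 424 CPM at 6m and 326, 239, 242 and 221 CPM at 24m (log2 fold change -0.61 ± 0.13 SE, adjusted p = 0.00242). These are among the longest coding sequences of the class, with 1131 and 1065 bases.

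Ndufc2 (ENSMUSG00000030647, chr7:97049210-97057022, plus strand), the membrane partner of Ndufc1, had 281, 242, 248 and 279.6 CPM at 6m and 204, 149.7, 156 and 138 CPM at 24m (log2 fold change -0.70 ± 0.13 SE, adjusted p = 0.00112). Ndufb4 (ENSMUSG00000022820, chr16:37467242-37474815, minus strand), of the distal arm, had 219.9, 201, 191 and 208 CPM at 6m and 184, 114, 113 and 94.6 CPM at 24m (log2 fold change -0.70 ± 0.18 SE, adjusted p = 0.00779). For Ndufb4, 24m replicate 1 was only 0.16 below the young mean while the other aged libraries were 0.94 below it. Ndufb4 also has near-identical annotated copies, so its reads may be shared. After removal of the trend over canonical transcript length, Ndufa9 was at 0.03 (adjusted p = 0.707), Ndufc2 at 0.01 (adjusted p = 0.897) and Ndufb4 at -0.05 (adjusted p = 0.666).

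Ndufs4, Ndufs5 and Ndufs6 were chosen because the study named them on these same samples, so their direction is no independent evidence. Ndufs4 (ENSMUSG00000021764, chr13:114421982-114524794, minus strand), whose loss causes a Leigh-like brain disease in mice, had 108, 106, 101 and 112 CPM at 6m and 69.8, 59.8, 58.4 and 56.9 CPM at 24m (log2 fold change -0.80 ± 0.09 SE, adjusted p = 8.62e-05). Its libraries were close together at each age. Ndufs5 (ENSMUSG00000028648, chr4:123606481-123612002, minus strand), a subunit on the intermembrane-space face of the membrane arm, had 352, 297, 306 and 334 CPM at 6m and 196, 134, 134 and 116 CPM at 24m (log2 fold change -1.15 ± 0.15 SE, adjusted p = 0.000254). Ndufs6 (ENSMUSG00000021606, chr13:73464968-73476661, minus strand), which binds zinc, had 267, 232, 234 and 281 CPM at 6m and 147, 97.2, 99.7 and 81.1 CPM at 24m (log2 fold change -1.25 ± 0.17 SE, adjusted p = 0.000265). All 3 were called lower with no overlap between the ages, and Ndufs5 and Ndufs6 have near-identical annotated pseudogenes.

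The other 17 accessory subunits were all called lower, with log2 fold changes from -1.22 (Ndufb1) to -0.75 (Ndufab1, the mitochondrial acyl carrier protein). Ndufa12, an N module subunit, was the one accessory gene whose ages overlapped, at 268, 235, 166 and 292 CPM at 6m and 183, 114, 111 and 105 CPM at 24m. The overlap came from 6m replicate 3, which was lower for this gene than 24m replicate 1, and the log2 fold change was -0.91 ± 0.21 (SE; adjusted p = 0.00478). Among the same 17, per kilobase of canonical transcript, Ndufb8 was the most abundant with 905 CPM per kb at 6m and 462 at 24m, and Ndufb2 the least abundant with 59.4 and 25.8. Levels per kb rest on the transcript the annotation calls canonical, which for Ndufb2, Ndufb9, Ndufs4 and Ndufs6 is long for its coding sequence.

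All 8 assembly factors fell at the adjusted p, without overlap between the ages, and 7 were called lower. Their median log2 fold change was -0.68, close to that of the nuclear core. With library totals alone 3 of the 8 were called lower and the median was -0.46. Ndufaf8 (ENSMUSG00000078572, chr11:119989736-119991531, plus strand), the partner of Ndufaf5, had 71.0, 55.1, 60.8 and 65.0 CPM at 6m and 33.4, 22.9, 22.1 and 16.8 CPM at 24m, the lowest log2 fold change of the class, -1.40 ± 0.19 (SE; adjusted p = 0.000255). Ndufaf5 (ENSMUSG00000027384, chr2:140012562-140047301, plus strand), which hydroxylates Ndufs7 during assembly, had 70.8, 63.8, 68.1 and 73.0 CPM at 6m and 49.0, 39.4, 40.4 and 37.6 CPM at 24m (log2 fold change -0.73 ± 0.10 SE, adjusted p = 0.000277). The partners thus differed in size of change, and their coding lengths are 222 and 1029 bases.

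Ndufaf2 (ENSMUSG00000068184, chr13:108139249-108295189, minus strand), a paralog of Ndufa12 that holds its place until late in assembly, had 35.5, 32.9, 31.2 and 34.8 CPM at 6m and 22.0, 16.6, 16.4 and 15.6 CPM at 24m (log2 fold change -0.93 ± 0.12 SE, adjusted p = 0.000211). Ndufaf3 (ENSMUSG00000070283, chr9:108442729-108444642, minus strand) and Ndufaf4 (ENSMUSG00000028261, chr4:24898079-24905001, plus strand) work together on the Q module. For Ndufaf3 the values were 109, 98.8, 99.0 and 111 CPM at 6m and 73.7, 56.6, 54.9 and 45.7 CPM at 24m (log2 fold change -0.86 ± 0.13 SE, adjusted p = 0.000566). For Ndufaf4 they were 12.5, 11.1, 12.6 and 10.5 CPM at 6m and 7.72, 8.51, 6.87 and 7.91 CPM at 24m (log2 fold change -0.59 ± 0.11 SE, adjusted p = 0.00155). Ndufaf4 was just inside the fold threshold, and it was the one assembly factor in which 24m replicate 1 was not the highest aged library.

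Ndufaf1 (ENSMUSG00000027305, chr2:119482683-119493359, minus strand), a member of the assembly complex for the membrane arm, had 37.7, 34.9, 35.6 and 39.6 CPM at 6m and 28.2, 23.1, 22.2 and 22.8 CPM at 24m (log2 fold change -0.62 ± 0.10 SE, adjusted p = 0.000626). Ndufaf6 (ENSMUSG00000050323, chr4:11048820-11076236, minus strand), an early-acting factor, had 17.3, 14.9, 14.4 and 15.8 CPM at 6m and 12.4, 9.73, 9.69 and 8.69 CPM at 24m (log2 fold change -0.62 ± 0.13 SE, adjusted p = 0.00215). Ndufaf7 (ENSMUSG00000024082, chr17:79244538-79256938, plus strand), a methyltransferase, had 46.5, 46.6, 49.9 and 47.1 CPM at 6m and 42.3, 37.2, 35.3 and 34.4 CPM at 24m (log2 fold change -0.35 ± 0.09 SE, adjusted p = 0.00638), the smallest fall among the members that fell. Removing the trend over canonical transcript length brought Ndufaf6 to -0.002 (adjusted p = 0.986) and left 4 of the 8 assembly factors called lower, with a class median of -0.55.

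The symbol also covers Ndufa4 (ENSMUSG00000029632, chr6:11897630-11907496, minus strand), now assigned to complex IV. It had 726, 612, 613 and 686 CPM at 6m and 434, 312, 306 and 263 CPM at 24m (log2 fold change -1.004 ± 0.15 SE, adjusted p = 0.000428), and the highest level per kb of all members at both ages, 1246 and 621 CPM per kb. Its paralog Ndufa4l2 (ENSMUSG00000040280, chr10:127350818-127353038, plus strand), known as a hypoxia-induced gene, was barely expressed, with 3.02, 2.32, 2.77 and 3.07 CPM at 6m and 2.00, 1.57, 1.65 and 1.22 CPM at 24m. It was called lower as well (log2 fold change -0.80 ± 0.18 SE, adjusted p = 0.00345). Of its 1148 exonic bases, 727 are shared with Shmt2 on the other strand. The strand setting of the counting is not stated, so the low counts of Ndufa4l2 may include reads of Shmt2.

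As fitted without a length correction, the size of the fall among the members followed coding length more closely than the other properties compared. Over the 47 tested members Spearman's rho of the log2 fold change was 0.758 with coding length, 0.432 with canonical transcript length, 0.365 with the length of all annotated exons and -0.29 with GC content. Over all protein-coding genes tested the value for coding length was 0.388. These are descriptions across genes that share the same libraries. After the trend over all annotated exons was removed, this order did not hold: over the members the rho was 0.255 with coding length, -0.55 with the length of all annotated exons, -0.29 with the genomic span and 0.287 with GC content. Ndufv3, an accessory subunit of the N module with one of the longer coding sequences, 1404 bases, went against the order (log2 fold change -1.01 ± 0.19 SE, adjusted p = 0.00146).

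**Figure D4:**
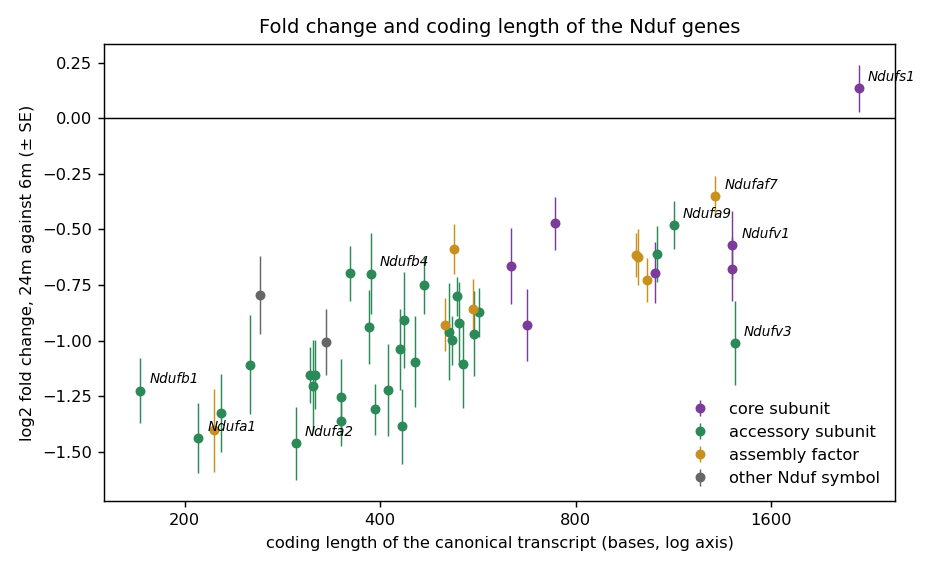
Log2 fold change of 24m against 6m with its SE for the 47 Nduf genes tested, against the coding length of the canonical transcript on a log axis, coloured by class. Short coding sequences tend to lie lower, and Ndufs1, the longest with 2181 bases, lies highest, with a Spearman rho of 0.758.

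Members fell together, so the sequences around their start sites were read from the GRCm39 genome, from 250 bases before to 50 bases after the start of the canonical GENCODE transcript, for the 47 tested members and 16573 tested protein-coding genes. The letters searched, on both strands, were those of factors known for mitochondrial genes: CGCATGCG (NRF1), CCGGAAG (ETS factors such as GABP), AAGATGGC (YY1) and CCAAT. No 2 of the motifs overlapped in the sequences shown. CGCATGCG was present in 3 members, 6.38% against 2.85% of all start-site windows, and CCGGAAG in 7 members, 14.9% against 12.8%. CCAAT was found in 16 members, 34.0% against 38.9%. AAGATGGC was found in 6 members (Ndufa2, Ndufa3, Ndufa4l2, Ndufa9, Ndufaf8 and Ndufb8), 12.8% against 2.94%. In all 6 it was on the gene's own strand between 10 and 42 bases after the start, and in 5 of them its ATG is the annotated start codon, Ndufaf8 being the exception. A match of these letters is a description and not a binding site. The matches of AAGATGGC, in capitals, are shown with up to 10 bases to either side on the gene's strand, for the 5 members printed here (Ndufa3 at chr7:3620384-3620411, plus strand; Ndufa4l2 at chr10:127350838-127350865, plus strand; Ndufa9 at chr6:126826061-126826088, minus strand; Ndufaf8 at chr11:119989760-119989785, plus strand; Ndufb8 at chr19:44543832-44543853, minus strand).
Ndufa3: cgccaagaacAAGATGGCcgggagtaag
Ndufa4l2: acactgggacAAGATGGCaggaactagt
Ndufa9: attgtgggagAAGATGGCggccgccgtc
Ndufaf8: ggcagggcccAAGATGGCggcgccct
Ndufb8: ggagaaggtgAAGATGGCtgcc

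The members with these letters fell by quite different amounts, from -0.48 in Ndufa9 to -1.46 in Ndufa2. The 3 matches of CGCATGCG lie 117 bases before the start in Ndufa13, 110 bases before it in Ndufaf4 and 14 bases after it in Ndufaf5, with log2 fold changes of -1.39, -0.59 and -0.73. They are shown in the same way because NRF1 is the factor most often tied to respiratory chain genes (Ndufa13 at chr8:70355972-70355999, minus strand; Ndufaf4 at chr4:24897961-24897988, plus strand; Ndufaf5 at chr2:140012573-140012600, plus strand).
Ndufa13: atcgaggatgCGCATGCGctctccagca
Ndufaf4: cagatgtctgCGCATGCGcctgtgcgga
Ndufaf5: gtcccgttggCGCATGCGcctaatagaa

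The 250 bases before the start are printed for a gene that fell strongly and for the gene that did not fall, Ndufa13 (chr8:70355873-70356122, minus strand) and Ndufs1 (chr1:63216237-63216486, minus strand), with matches of the 4 motifs in capitals. Ndufa13 has a single match, CGCATGCG, and Ndufs1 has none. This pair is no pattern: in the windows searched 21 of the 47 members have no match of the 4 motifs, among them Ndufa5 and Ndufc1, which fell about as far as Ndufa13. The median log2 fold change was -0.91 in those 21 and -0.99 in the 26 members with a match. The exons of Ndufs1 share 297 bases with those of Eef1b2, a translation elongation factor gene on the other strand whose transcripts start in the same region. Eef1b2 fell by 0.78 ± 0.16 on the log2 scale (SE, adjusted p = 0.00252).
Ndufa13: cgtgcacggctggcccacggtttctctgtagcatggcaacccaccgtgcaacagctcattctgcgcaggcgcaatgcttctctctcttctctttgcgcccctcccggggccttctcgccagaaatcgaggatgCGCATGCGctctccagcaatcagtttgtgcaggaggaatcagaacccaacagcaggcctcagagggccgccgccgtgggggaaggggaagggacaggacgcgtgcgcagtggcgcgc
Ndufs1: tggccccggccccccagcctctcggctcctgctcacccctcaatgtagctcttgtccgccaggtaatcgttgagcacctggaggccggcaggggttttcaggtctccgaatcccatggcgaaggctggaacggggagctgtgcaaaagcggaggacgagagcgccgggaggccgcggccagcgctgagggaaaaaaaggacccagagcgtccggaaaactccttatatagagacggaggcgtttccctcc

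Neighbouring genes were counted too. Of the tested members, 9 (19.1%) have a protein-coding gene that starts within 1000 bases upstream on the other strand, against 6.42% of the protein-coding genes tested. Such genes were absent from the core by this count and present in 3 of the 8 assembly factors. Exonic bases are shared with a listed gene on the other strand in 22 members and on the same strand in 4 (Ndufa13, Ndufb2, Ndufb8 and Ndufb9), and 8 tested members (Ndufa12, Ndufab1, Ndufb11, Ndufb3, Ndufb4, Ndufs3, Ndufs5 and Ndufs6) have a near-identical annotated pseudogene or copy, with an aligned length of at least 50% of the coding length. The strand setting and the treatment of multimapping reads in the counting are not stated, so counts of these members are uncertain to that extent.

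Genes that work with the members moved less evenly. Of 12 assembly factors of complex I that carry other names, 3 were called lower, 0 higher, and the median was -0.30. The share called lower was 25.0%, near the 18.3% of all genes tested, whereas it was 87.5% among the Ndufaf genes. At the adjusted p alone 6 of the 12 fell, against 29.9% of all genes, and in 6 of the 12 every 24m library lay below every 6m library, against 26.8% of all genes. Their summed level was 367 to 395 CPM at 6m and 267 to 313 CPM at 24m, without overlap. Dmac1, which helps to build the distal arm, went from 56.3, 48.5, 49.9 and 56.6 CPM at 6m to 37.8, 27.6, 27.6 and 22.3 CPM at 24m (log2 fold change -0.87 ± 0.15 SE, adjusted p = 0.000863). Timmdc1, a membrane-arm factor, was at -0.76 ± 0.12 (adjusted p = 0.00053), and Ecsit was also called lower at -0.63 ± 0.11 (adjusted p = 0.00112). At the upper end were Tmem186, at 0.25 ± 0.10 (adjusted p = 0.0597), and Acad9, at 0.22 ± 0.10 (adjusted p = 0.0834), both partners of Ndufaf1 in the membrane-arm assembly complex, neither of which passed the test. Their median canonical transcript is 2645 bases, against 1855 for the Ndufaf genes.

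The clusters of the peripheral arm are made by the iron-sulphur assembly machinery. Of its 14 genes, which include Ndufab1, 9 were called lower and 0 higher, with a median of -0.72. Bola3 had 66.5, 52.3, 56.5 and 68.4 CPM at 6m and 32.4, 26.1, 25.3 and 20.6 CPM at 24m (log2 fold change -1.22 ± 0.15 SE, adjusted p = 0.000145), and Glrx5 was at -1.12 ± 0.18 (adjusted p = 0.000616). Both act in passing clusters to their targets. Isca1, a late-acting factor, rose, with 48.3, 56.7, 55.4 and 47.7 CPM at 6m and 67.4, 68.1, 68.7 and 75.2 CPM at 24m (log2 fold change 0.43 ± 0.09 SE, adjusted p = 0.00225), which did not pass the fold threshold. Iba57 was at -0.11 ± 0.11 (adjusted p = 0.425).

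The 7 core subunits encoded by mitochondrial DNA all fell at the adjusted p, and 5 were called lower with a median of -1.06. mt-Nd1 was the lowest at -1.30 ± 0.12 (SE; adjusted p = 4.1e-05), followed by mt-Nd2 at -1.19 ± 0.13 (adjusted p = 0.000107), and mt-Nd5 and mt-Nd4l, which were not called, were at -0.53 ± 0.16 (adjusted p = 0.0146) and -0.53 ± 0.16 (adjusted p = 0.0169). Unlike the nuclear members, their mean log2 CPM in 24m replicate 1 was 9.40, within the 9.33 to 9.66 of the other aged libraries, and the 6m libraries had 10.1 to 10.6. The nuclear and the mitochondrial genes of the complex thus ranked the aged libraries differently.

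Nuclear subunits of complexes II to V are the closest group to compare. Of 41 gene entries, Atp5po being listed under 2 identifiers, 31 (75.6%) were called lower and 0 higher, with a median of -1.01. The lowest were Atp5mj, at -1.32 ± 0.14 (adjusted p = 8.63e-05), and Uqcr11, at -1.32 ± 0.30 (adjusted p = 0.00379), small subunits of complexes V and III. The highest were Atp5f1a, at 0.04 ± 0.09 (adjusted p = 0.739), and Sdha, at 0.02 ± 0.09 (adjusted p = 0.83), the alpha subunit of the ATP synthase head in complex V and the flavoprotein subunit of complex II. In mitochondrial ribosomal proteins 58 of 78 were called lower and 0 higher, with a median of -0.78. Mrpl52 and Mrps21 were the lowest at -1.26 ± 0.16 (adjusted p = 0.0002) and -1.20 ± 0.19 (adjusted p = 0.000645), and Mrps31 and Mrps30 the highest at 0.11 ± 0.10 (adjusted p = 0.354) and -0.02 ± 0.08 (adjusted p = 0.817).

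Of 11 regulators of mitochondrial biogenesis, 1 was called lower and 3 were called higher, with a median of -0.02. Over all genes tested 18.3% were called lower and 25.3% higher, so these counts are near the background. Ppargc1a, the coactivator PGC-1alpha, rose from 3.00, 3.86, 3.83 and 2.38 CPM at 6m to 4.51, 9.87, 9.27 and 13.8 CPM at 24m (log2 fold change 1.52 ± 0.31 SE, adjusted p = 0.00212). Gabpa, the DNA-binding subunit of GABP, was at 1.36 ± 0.27 (adjusted p = 0.00183) at a low level of 1.25 to 3.20 CPM on average, and Yy1 was also called higher at 0.59 ± 0.11 (adjusted p = 0.00147). Ppargc1b, the sister coactivator, was called lower at -0.59 ± 0.14 (adjusted p = 0.00415), and Esrrg fell by 0.49 ± 0.14 (adjusted p = 0.0102) without passing the fold threshold. Nrf1 was at 0.22 ± 0.09 (adjusted p = 0.0559) and Tfam, the packaging factor of mitochondrial DNA, at -0.02 ± 0.11 (adjusted p = 0.908).

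Cell type markers are given beside these results, and their part in them was not tested. Their counts are to be read against the 25.3% of all genes called higher and 18.3% called lower, which those of neurons, oligodendrocytes, microglia and endothelial cells were near. Of 5 astrocyte markers 4 were called higher and 0 lower, and their summed level was 414 to 461 CPM at 6m and 863 to 1010 CPM at 24m, with Aqp4 at 1.92 ± 0.22 (adjusted p = 0.000112) the highest and Aldh1l1 at -0.26 ± 0.12 (adjusted p = 0.0723) the lowest. Of 6 neuronal markers 2 were called higher (Syt1 and Gad1) and 1 lower (Tubb3), with summed levels of 3400 to 3800 CPM at 6m and 3850 to 3980 CPM at 24m. Microglia (2 of 6 higher, 410 to 441 against 422 to 568 CPM), oligodendrocytes (1 of 5 higher, 2690 to 3430 against 2930 to 3340 CPM) and endothelial cells (1 of 5 higher and 1 lower, 37.7 to 54.7 against 25.5 to 40.4 CPM) overlapped between the ages in their sums. Abundant markers weigh most in a sum. In mean log2 CPM microglia did not overlap, at 4.76 to 4.94 at 6m and 5.34 to 5.48 at 24m. Nor did oligodendrocytes, at 8.11 to 8.25 and 8.28 to 8.42. Endothelial cells did, at 2.24 to 2.604 and 1.722 to 2.735. At the adjusted p alone 4 of the 6 microglial markers rose, as did 5479 of all 16730 genes. All 4 red blood cell genes were called lower, from 4330 to 6050 CPM at 6m to 1010 to 3290 CPM at 24m, and again 24m replicate 1 was the highest aged library. Muscle genes, not expected in brain, were low throughout and also called lower in 4 of 4, from 33.7 to 44.5 CPM to 17.4 to 21.5 CPM.

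**Figure D5:**
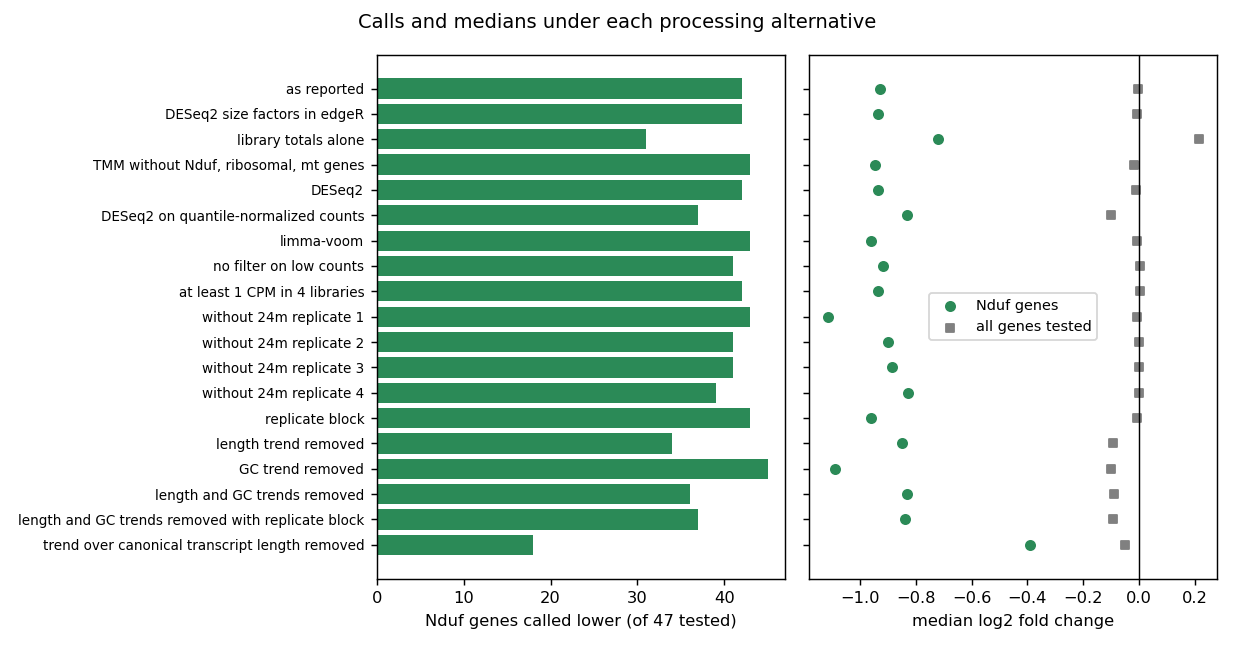
Number of the 47 tested Nduf genes called lower (bars, left) and median log2 fold change of the Nduf genes and of all genes tested (points, right) under the reported setting and each processing alternative other than leaving out a 6m library. Bars run from 45 with the GC trend removed to 18 with the trend over canonical transcript length removed, and each median of the Nduf genes lies below that of all genes.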

How the data were processed

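Polyadenylated RNA of 8 mouse brains (4 of 6m, 4 of 24m, 1 library each) was made into directional libraries and sequenced. The authors trimmed reads with Trim Galore (0.4.11 in the submitters' processing notes), aligned them to GRCm39 with HISAT2 (2.1.0) and counted them per Ensembl gene with featureCounts; they deposited whole-number counts per gene, without normalization or pooling. Strand use and multimapping settings are not given in the sources used here.

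Groups came from the labels. Of 22430 listed genes, 22281 matched GENCODE vM39, which gave symbols, positions and lengths. The 16730 genes above 5 counts in 4 or more libraries were tested with edgeR 4.0.16 (quasi-likelihood, TMM, age as the only term) in R 4.3.3, with Benjamini-Hochberg adjustment over all of them. Calls needed an adjusted p of at most 0.05 and an absolute log2 fold change of at least 0.58. Log2 CPM used a prior count of 2. Chi-square per degree of freedom between replicates was 8.18 to 417, so each library counted as 1 replicate. The code was tested on simulated data.

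Full values are given for the core subunits (1 is not reported here), the 6 lowest and 4 highest accessory subunits by log2 fold change with a mean of at least 1 CPM, Ndufs4 to Ndufs6, all Ndufaf genes and the other tested Nduf symbols, and the 2 lowest and 2 highest genes of the other lists; Ndufa12, Ndufv3, Ecsit, Yy1, Nrf1, Tfam, Eef1b2 and further single genes were named after their values were seen. The members and lists were chosen with earlier results of these data known. Alternatives used DESeq2 1.42.0, limma 3.58.1 (voom), other scalings and filters, left-out libraries, a replicate block, and smooth trends per library over length and GC (mgcv 1.9.3).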

Additional observations from a re-analysis of the deposited data

Results flagged for a closer look

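Over 102 groups of 4 values (each tested member at each age, and class levels), a single sample far from the other 3 was found in 3. All of them were 24m replicate 1. Chance gives about 1 such group in 20, so 3 of 102 is no excess. Ndufa12 had 183 CPM in that library against 105 to 114 CPM in the other aged libraries. Ndufaf1 had 28.2 CPM against 22.3 to 23.1 CPM. Ndufaf2, the paralog of Ndufa12, had 22.0 CPM against 15.6 to 16.6 CPM. In all 3 genes the value lay on the side of the 6m libraries, as it did for most members.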

How the results depend on the processing

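With library totals alone 1 core subunit and 3 assembly factors were called lower, with medians of -0.46 in both classes (-0.459 and -0.463). With quantile-normalized counts 1 core subunit was called lower, and the medians of core subunits and assembly factors were -0.34 and -0.83. Without the GC trend the assembly factors' median was -0.90. With the trend over canonical transcript length removed, an alternative added after seeing the data, 18 members, 0 core subunits, 14 accessory subunits and 4 assembly factors were called lower. The medians were then -0.39 for all members, -0.17 for the core (-0.165) and -0.54 for accessory subunits, and Ndufs8, Ndufc2 and Ndufa9 reached 0.021, 0.011 and 0.031. Ndufs1 was at 0.36 with library totals alone and at 0.04 to 0.22 with 1 library left out, and turned to -0.40 without the exonic length trend, -0.19 without the GC trend, -0.44 (-0.435) without both, -0.44 (-0.436) without both and with the block, and -0.11 without the canonical length trend. Leaving out each library in turn gave 39 to 43 members, 3 to 6 core subunits, 28 to 29 accessory subunits and 5 to 7 assembly factors called lower, 46 members in each case past the adjusted p and lower, 0 called higher, medians of -1.12 to -0.83 (members), -0.82 to -0.56 (core), -1.27 to -0.94 (accessory) and -0.77 to -0.64 (assembly factors), and a difference in share of -0.53 to -0.43 percentage points. The count of 6 core subunits came without 24m replicate 1. With the replicate number as a block 43 members were called lower, with a median of -0.96, and 37 with both trends removed as well. Numbers did not pair the samples (correlations of 0.271, 0.143, 0.078 and -0.35 between same-numbered libraries). No member was called higher in any alternative. Low counts limit Ndufa4l2 most, with 106 counts in its poorest library.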
